A study of Mus musculus with 9 samples.

Results

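The genes described here encode the subunits of the serine/threonine protein phosphatases PP1 to PP6, the family of enzymes that holds the main targets of okadaic acid, PP2A and PP1. Calcineurin (PP2B) belongs to the family but is largely insensitive to the compound. They are the genes of the deposited table whose symbol begins with Ppp, a digit from 1 to 6 and the letter c or r, without symbols that contain -ps and without Ppp1r15a. Of 54325 gene symbols in the table, 87 matched this pattern, 10 were left out and 77 remained, with 408 transcripts. Of the 77 genes, 11 encode catalytic subunits, 63 carry the symbols of regulatory subunits, 2 are antisense RNAs (Ppp1r18os and Ppp2r2cos) and 1, Ppp1ccb, is annotated as a transcribed processed pseudogene of Ppp1cc. By family, 44 of the symbols belong to PP1, 17 to PP2A, 5 to PP2B (calcineurin), 6 to PP4, 1 to PP5 and 4 to PP6. In this list 3 genes (Ppp1r1a, Ppp1r14d and Ppp3r2) had no count in any of the 9 libraries.

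The libraries come from N2A (Neuro-2A) cells, a mouse neuroblastoma line, and all 9 of them, controls included, were made from cells exposed to 200 nM okadaic acid for 2 h. The groups are input RNA taken without immunoprecipitation (IP), RNA recovered with rabbit IgG (rIgG IP) and RNA recovered with an antibody to phosphorylated UPF1 (p-UPF1 IP), with 3 libraries in each. Input RNA and bound RNA alike were digested with RNase I, and only short pieces of either were sequenced. Cells without okadaic acid were not analysed here, so the values describe which mRNAs were recovered with p-UPF1 and not a response to the compound.

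A phosphatase of this family is a small catalytic subunit that gains its substrate and its place in the cell from a regulatory partner. PP1 works with a large and varied set of targeting and inhibitory subunits, while PP2A is built on a scaffold (A) subunit that joins a catalytic (C) subunit to a regulatory B subunit of the B55, B56 or B'' type. UPF1, an RNA helicase of nonsense-mediated mRNA decay (NMD), is phosphorylated by SMG1 on the mRNAs it marks for decay and is dephosphorylated with the help of PP2A, and for that reason okadaic acid is used to preserve p-UPF1.

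The catalytic subunits are relatives, and fragments of the length sequenced can be told apart only where their mRNAs differ. The 30 bases below code for the conserved metal-binding signature of the active site, read from the GENCODE M21 transcripts (GRCm38) and shown to let a reader see how alike the members are at their most conserved place. Capitals mark the bases that differ from Ppp1ca, and each stretch lies inside an exon of the coding sequence or, for Ppp1ccb, of the pseudogene transcript.
Ppp1ca (chr19:4193105-4193134, plus strand): ggggattatgtagatcggggcaagcagtct
Ppp1cb (chr5:32480773-32480802, plus strand): ggAgattatgtGgaCAgAggAaagcagtct
Ppp1cc (chr5:122169002-122169031, plus strand): ggggaCtatgtGgaCAggggcaagcagtcC
Ppp1ccb (chr7:119740398-119740427, plus strand): ggggaCtatgtGgaCAggggcaagcagtcC
Ppp2ca (chr11:52113267-52113296, plus strand): ggAgaCtatgtGgaCAgAggATaTTaCtct
Ppp2cb (chr8:33610802-33610831, plus strand): ggggaCtatgtagaCAgAggGTaCTaCtct
Ppp3ca (chr3:136868691-136868720, plus strand): ggggaCtatgtTgaCAgAggGTaCTTCAGt
Ppp3cb (chr14:20530950-20530979, minus strand): ggTgattatgtGgaCAgAggTTaTTTTAGt
Ppp3cc (chr14:70266636-70266665, minus strand): ggTgaCtatgtGgaCAgAggcTaTTTCAGt
Ppp4c (chr7:126788150-126788179, minus strand): ggAgaCtTtgtGgaCcgTggTTTCTaCAGt
Ppp5c (chr7:17007793-17007822, minus strand): ggCgattTtgtGgaCcgTggTTCCTTCtcC
Ppp6c (chr2:39204945-39204974, minus strand): ggTgattTtgtagaCAgAggTTaCTaTAGt
The stretch of Ppp1cb differed from that of Ppp1ca at 6 bases and that of Ppp1cc at 5, while those of the other families differed at 9 to 14 bases. The whole coding sequences of Ppp2ca and Ppp2cb were 81.7% identical and had no 35-nt window in common, so reads of that length can separate them. Ppp1ca and Ppp1cc had 10 of 959 such windows in common. Ppp1cc and Ppp1ccb were identical over 972 aligned bases, and 60.3% of the 35-nt windows of the Ppp1cc transcript occurred in another gene. How the counts of Ppp1cc and Ppp1ccb were divided is therefore uncertain, and they are also given as a sum. In total, 10 of the 77 genes had more than 5% of their 35-nt windows in common with another gene (Ppp1cc, Ppp1ccb, Ppp1r14b, Ppp1r2, Ppp1r3f, Ppp2r2a, Ppp2r3c, Ppp2r5a, Ppp3r1 and Ppp4r2), and 48 had none.

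The input libraries summed to 25184464 to 29857955 counts, those of the p-UPF1 IP to 5312526 to 6246110 and those of the rIgG IP to 79010 to 474491. The phosphatase genes held 741 to 757 CPM (counts per library, brought to a common total) of the input, 714 to 784 CPM after p-UPF1 IP and 558 to 734 CPM after rIgG IP. A gene needed 0.100 to 0.119 CPM in the input, 0.480 to 0.565 CPM in the p-UPF1 IP and 6.32 to 37.97 CPM in the rIgG IP to reach 3 counts, a floor that covers counting error only. The neuroblastoma markers summed to 179 to 197 CPM in the input, the astrocyte markers to 0 to 0.0397 CPM and the microglia markers to 0.100 to 0.159 CPM. The oligodendrocyte markers summed to 1.37 to 2.04 CPM in the input and 9.93 to 13.1 CPM in the p-UPF1 IP, and their part in the results was not tested. Within every group, replicates were further apart than counting noise allows (chi-square over its degrees of freedom, 3.62 to 15.6), so none was taken for a library deposited more than once. Bulk libraries such as these cannot tell fewer cells from less RNA per cell. The authors describe their protein blots of these IPs as standing for 3 independent experiments. Neither they nor the labels say that the sequenced replicates came from separate cultures, so p-values measure the spread between these libraries.

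Setting p-UPF1 IP libraries against input asks which mRNAs were over- or under-represented among the fragments held by p-UPF1. Of the 77 genes, 63 reached a summed count of 10 and were tested, namely the 11 catalytic genes, 51 of the 63 regulatory genes and Ppp1ccb. The 14 others had at most 6 counts over all libraries. With edgeR's quasi-likelihood test on counts summed per gene and Benjamini-Hochberg adjustment over all genes tested, 15 of the 63 were higher in the p-UPF1 IP, 29 were lower and 19 were not called at an adjusted p of 0.05. Across the 16919 genes tested, 26.3% were higher and 35.7% were lower, so the list as a whole lay near the background for genes that were higher and above it for genes that were lower. The median log2 fold change was -0.31 over the 63 genes and -0.42 over all genes. With library totals in place of TMM (trimmed mean of M-values) scaling, the median of all genes moved by 0.41 to -0.01, and 22 of the 63 genes were higher and 19 lower. The shares of all genes higher and lower under that scaling are not given here. The 22 and 19 are therefore not read against 26.3% and 35.7%, which belong to TMM scaling.

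The catalytic and regulatory subunits stood apart in this comparison. Of the 11 catalytic genes, 9 were lower in the p-UPF1 IP, all 9 by more than a log2 fold change of 1, against 26.5% of all genes depleted by that much. Of the 51 regulatory genes tested, 14 were higher, 19 were lower and 18 were not called, with 7 enriched and 6 depleted past a log2 fold change of 1, against 17.2% of all genes enriched. The median log2 fold change was -1.51 over the catalytic genes and -0.02 over the regulatory genes, a difference of -1.48 (-1.57 to -1.39 across the alternatives tried). Taken from each p-UPF1 IP library against the mean of the input, this difference was -1.64, -1.35 and -1.41. No test was made over the members.

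**Figure D1:**
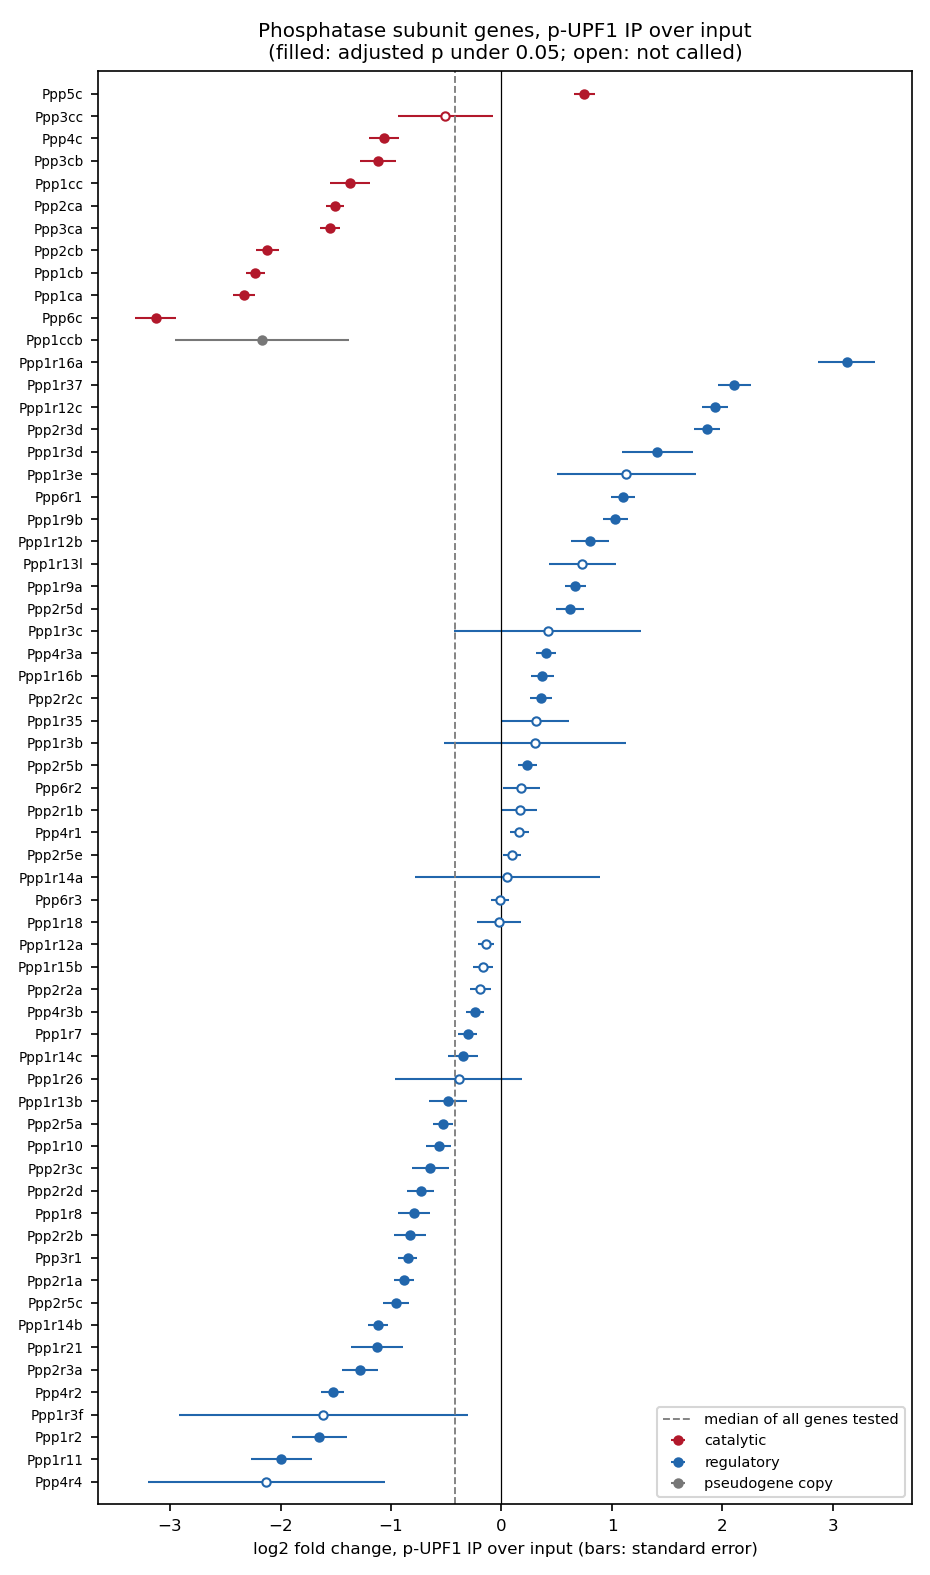
Log2 fold change of the 63 tested phosphatase subunit genes in the p-UPF1 IP over input (x axis), with standard errors as bars, grouped as catalytic genes (red), the pseudogene copy Ppp1ccb (grey) and regulatory genes (blue). Filled points passed an adjusted p of 0.05, and the dashed line is the median of all genes tested, at -0.42. All catalytic genes but Ppp5c lie below 0, while the regulatory genes run from -2.13 (Ppp4r4, not called) to 3.12 (Ppp1r16a).

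The PP1 catalytic subunits were among the most depleted members. Ppp1ca, which encodes PP1 alpha, lay at 23.6, 23.7 and 23.4 TMM-scaled CPM in the input libraries and at 4.74, 4.25 and 5.07 in the p-UPF1 IP libraries, so the groups were far apart. It was 5.03-fold lower in the p-UPF1 IP (log2 fold change -2.33 ± 0.10, standard error, edgeR adjusted p = 1.82e-08). Ppp1cb, which encodes PP1 beta, the catalytic subunit of myosin phosphatase, had input values of 48.8, 51.7 and 53.6 CPM and p-UPF1 IP values of 10.8, 10.4 and 11.6 CPM. Its replicates were close and it was 4.69-fold lower (log2 fold change -2.23 ± 0.09, edgeR adjusted p = 9.82e-09). Ppp1cc, which encodes PP1 gamma, had 27, 24.4 and 22.7 CPM in the input and 6.44, 8.78 and 13.1 CPM in the p-UPF1 IP. These groups did not overlap either, but the p-UPF1 IP libraries of Ppp1cc were more spread than those of Ppp1ca or Ppp1cb, and the fold change was smaller (-1.37 ± 0.18, edgeR adjusted p = 8.28e-05). Ppp1ccb has 2 transcripts and in total had 117, 185 and 260 input counts and 35, 0 and 0 p-UPF1 IP counts, so only p-UPF1 IP replicate 1 held counts of it. With the counts of Ppp1cc and Ppp1ccb added together, an alternative chosen after seeing the data, the log2 fold change was -1.52.

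The PP2A catalytic subunits fell as well. Ppp2ca, which encodes the alpha form of the C subunit, lay at 55.5, 56.1 and 62.2 CPM in the input and 20.7, 19.9 and 20.6 CPM in the p-UPF1 IP, and was 2.84-fold lower (log2 fold change -1.51 ± 0.08, edgeR adjusted p = 9.04e-08). Ppp2cb, which encodes the beta form, lay at 36.6, 33.7 and 37.7 CPM in the input and 8.64, 7.13 and 9.16 CPM in the p-UPF1 IP, a 4.34-fold lower level (log2 fold change -2.12 ± 0.11, edgeR adjusted p = 6.02e-08). In both genes every p-UPF1 IP library was below every input library. The calcineurin A genes Ppp3ca and Ppp3cb were lower as well, with log2 fold changes of -1.55 ± 0.09 and -1.12 ± 0.16 (edgeR adjusted p = 1.74e-07 and 0.000167). Ppp3cc, the calcineurin A isoform known from testis, held only 15 to 23 counts in the input libraries and 2 to 5 in the p-UPF1 IP, and its log2 fold change of -0.51 ± 0.43 was not called (adjusted p = 0.327).

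The catalytic genes of PP4, PP5 and PP6 covered the whole range of the catalytic set. Ppp6c, whose product acts with Sit4-associated (SAPS) subunits, was the most depleted member called, with 16.8, 17.6 and 20.2 CPM in the input and 2.71, 2.33 and 1.27 CPM in the p-UPF1 IP. That is an 8.75-fold lower level (log2 fold change -3.13 ± 0.19, edgeR adjusted p = 2.18e-07). Ppp4c, the PP4 catalytic gene, was lower by 2.09-fold (log2 fold change -1.07 ± 0.14, edgeR adjusted p = 5.97e-05). Ppp5c, which encodes PP5, a phosphatase that carries its own regulatory domain of tetratricopeptide repeats in the same chain, went the other way. Its input libraries lay at 10.7, 10.2 and 11.3 CPM and its p-UPF1 IP libraries at 18.6, 19.3 and 16.2 CPM, a 1.68-fold higher level (log2 fold change 0.75 ± 0.09, edgeR adjusted p = 5.39e-05).

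**Figure D2:**
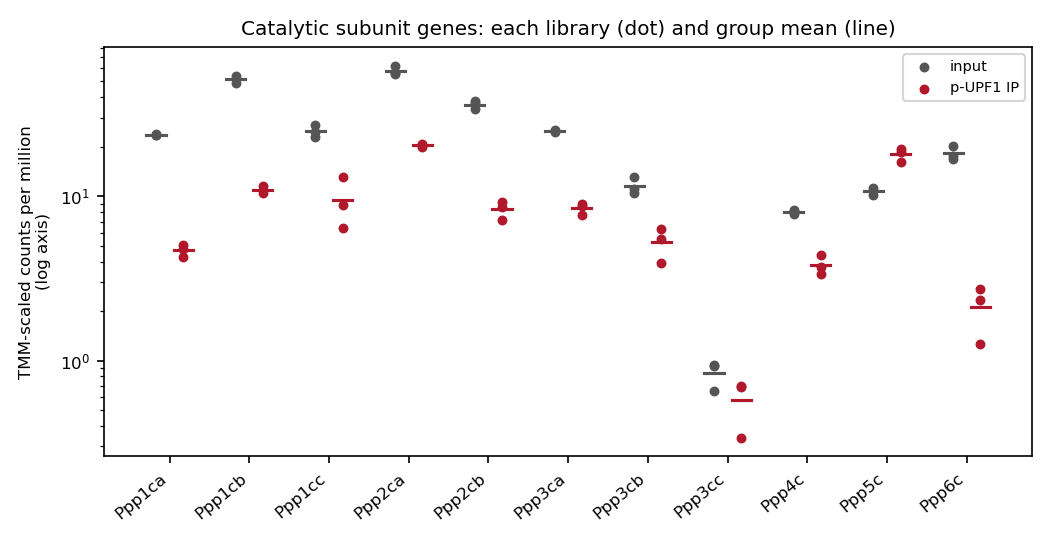
TMM-scaled CPM (log axis) of the 11 catalytic subunit genes (x axis) in the 3 input libraries (grey dots) and the 3 p-UPF1 IP libraries (red dots), with a line at each group mean. The p-UPF1 IP dots lie below the input dots in the 9 genes called lower, they overlap in Ppp3cc, and they lie above in Ppp5c. Of all genes tested, 35.7% were called lower, and the share whose libraries lie wholly apart was not counted.

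To compare genes with each other, levels were divided by transcript length. Per kilobase in the input, Ppp1cb was the highest catalytic gene at 32.5 ± 5.64 CPM per kb (SD, n = 3), followed by Ppp2cb at 21.3 ± 0.816, Ppp1ca at 14.2 ± 0.602 and Ppp1cc at 10.8 ± 1.80. Next came Ppp3ca (9.32 ± 0.0696), Ppp6c (9.20 ± 1.29), Ppp5c (8.26 ± 0.902), Ppp4c (8.24 ± 1.31) and Ppp2ca (7.57 ± 0.0481) and then Ppp3cb (3.93 ± 1.07) and Ppp3cc (0.370 ± 0.0542). These levels depend on how reads were assigned to transcripts of unlike length. From Ppp1cc to Ppp2ca, neighbours in this order differed by less than the spread between libraries. In the p-UPF1 IP the order changed, and Ppp5c was highest at 18.4 ± 3.27 CPM per kb, while Ppp1cb stood at 2.78 ± 0.589 and Ppp6c at 1.43 ± 0.617. Ppp2ca, whose representative transcript has 5804 nt of 3' UTR, had more CPM but a lower level per length than Ppp2cb, whose representative has 247 nt.

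The same contrast can be read inside each library, without any scaling between libraries. Catalytic genes took 30.8%, 30.8% and 31.3% of the phosphatase counts in the input, 28.3%, 28.3% and 22.4% in the rIgG IP and 13.7%, 14.3% and 14.6% in the p-UPF1 IP. The 95% Wilson intervals, which cover counting error only, spanned 30.2% to 31.9% in the input and 12.7% to 15.7% after p-UPF1 IP. After the far shallower rIgG IP they spanned 13.6% to 36.97%. The group means were 31.0% ± 0.297, 26.4% ± 3.41 and 14.2% ± 0.439 (SD, n = 3). The p-UPF1 IP libraries were below all others. With 3 libraries against 3, an exact permutation test cannot go below p = 0.10 and none is given. PP1 genes took 54.4% to 55.97% of the counts of PP1 and PP2A together in the input, 51.1% to 55.95% in the rIgG IP and 57.9% to 58.6% in the p-UPF1 IP, means of 55.2% ± 0.815, 53.1% ± 2.55 and 58.2% ± 0.380. Among the catalytic counts alone, the PP1 genes took 49.97% to 52.6% of the input and 42.9% to 50.0% after p-UPF1 IP, which overlap.

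**Figure D3:**
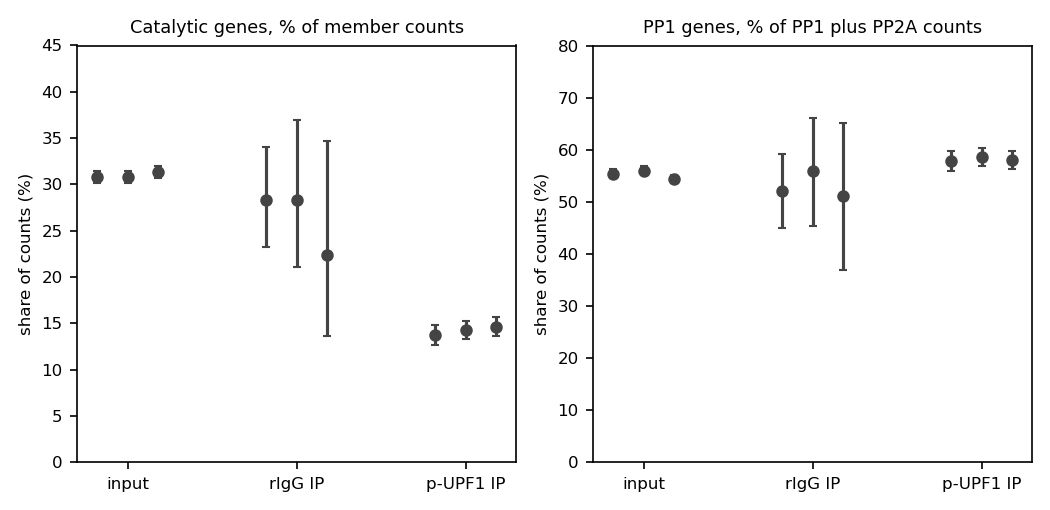
Share of counts (y axis, percent) in each of the 9 libraries (dots, with 95% Wilson intervals as bars) by group: on the left the catalytic genes among all phosphatase counts, on the right the PP1 genes among the counts of PP1 and PP2A. The bars cover counting error only. The catalytic share lies at 30.8% to 31.3% in the input and 13.7% to 14.6% in the p-UPF1 IP, whereas the PP1 share stays between 51.1% and 58.6% in all libraries.

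Among the PP1 regulatory genes, most of those that target PP1 to myosin and actin were higher. Of 8 such genes, all tested, 6 were higher in the p-UPF1 IP, none was lower and 2 were not called, against 26.3% of all genes higher and 35.7% lower, with a median log2 fold change of 0.74 against -0.42 over all genes. Ppp1r16a (MYPT3), a membrane-anchored member of the myosin phosphatase targeting family, had the largest value of all 77 genes. It lay at 1.04, 0.714 and 1.65 CPM in the input and 8.30, 10.3 and 11.4 CPM in the p-UPF1 IP, an 8.71-fold higher level (log2 fold change 3.12 ± 0.26, edgeR adjusted p = 2.35e-06). Ppp1r12c (MBS85), also of that family, rose from 4.25 ± 0.208 to 16.3 ± 2.03 CPM (SD, n = 3, log2 fold change 1.93 ± 0.12, edgeR adjusted p = 2.58e-07). Ppp1r12b (MYPT2) and Ppp1r16b (TIMAP, the endothelial relative of MYPT3) were higher by smaller log2 fold changes of 0.80 ± 0.17 and 0.37 ± 0.10 (edgeR adjusted p = 0.00210 and 0.00980). Ppp1r12a (MYPT1), the common myosin phosphatase targeting subunit, was not called, at 27.7, 28.1 and 27.2 CPM in the input and 24.6, 25.9 and 24.7 CPM in the p-UPF1 IP (log2 fold change -0.14 ± 0.07, adjusted p = 0.108), and with library totals it was called higher, at 0.27. The neuronal actin-binding scaffolds Ppp1r9b (spinophilin) and Ppp1r9a (neurabin) were higher, with log2 fold changes of 1.03 ± 0.11 and 0.67 ± 0.09 (edgeR adjusted p = 2.12e-05 and 0.000102). Ppp1r18 (phostensin), an actin-binding PP1 subunit, was the other gene not called, at -0.02 ± 0.20 (adjusted p = 0.921). Ppp1cb, the catalytic partner in myosin phosphatase, was thus lower while 4 of the 5 Ppp1r12 and Ppp1r16 genes were higher.

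Most PP1 inhibitors that could be tested were lower. Of 10 inhibitor genes 5 could be tested, and 4 of these were lower, 3 of them by a log2 fold change of more than 1, with none higher and a median of -1.12, against 35.7% of all genes lower and 26.5% depleted. The fifth, Ppp1r14a, had 10 input counts in all and was not called (0.05 ± 0.84, adjusted p = 0.961). Ppp1r11 (inhibitor-3) lay at 4.78, 4.15 and 5.87 CPM in the input and 1.69, 1.37 and 0.704 CPM in the p-UPF1 IP (log2 fold change -1.99 ± 0.28, edgeR adjusted p = 0.000123). Ppp1r2 (inhibitor-2) lay at 8.56, 8.30 and 10.9 and 2.54, 4.39 and 1.83 CPM (log2 fold change -1.65 ± 0.25, edgeR adjusted p = 0.000197), and 11.03% of its 35-nt windows occur in other genes, mostly in Ppp1r2-ps4. Ppp1r14b, of the family of phosphorylation-dependent inhibitors of myosin phosphatase, lay at 22.5, 20.8 and 21.7 and 8.98, 10.7 and 10.1 CPM (log2 fold change -1.12 ± 0.09, edgeR adjusted p = 2.44e-06), and 38.9% of its windows occur elsewhere. Ppp1r14c (KEPI), of the same family, was lower, with a log2 fold change of -0.35 ± 0.13 (edgeR adjusted p = 0.0453), a call that 11 alternatives did not keep, library totals among them (0.06). The DARPP-32 gene Ppp1r1b and its relatives Ppp1r1a and Ppp1r1c, inhibitors known from striatal and other neurons, had at most 2 counts in any library.

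The 3 nuclear PP1 subunits were modestly lower, with library totals excepted. Ppp1r8 (NIPP1), which holds PP1 at spliceosomes and chromatin, had 15.6, 16.8 and 17.5 CPM in the input and 6.95, 9.60 and 12 CPM in the p-UPF1 IP (log2 fold change -0.79 ± 0.15, edgeR adjusted p = 0.000907). Ppp1r10 (PNUTS), a partner of PP1 at transcription termination, followed with -0.57 ± 0.12 (edgeR adjusted p = 0.00169). Ppp1r7 (SDS22), named after its values were seen because it completes the 3, had a log2 fold change of -0.31 (edgeR adjusted p = 0.0108). With library totals all 3 calls were lost, at -0.38 (Ppp1r8), -0.16 (Ppp1r10) and 0.1001 (Ppp1r7, whose call 5 other alternatives did not keep either). Of the remaining PP1 genes, Ppp1r37, a leucine-rich repeat protein that binds PP1, lay at 3.39, 2.99 and 2.85 CPM in the input and at 15.4, 13.7 and 10.8 CPM in the p-UPF1 IP. Its groups were widely separated, and it was 4.31-fold higher (log2 fold change 2.11 ± 0.15, edgeR adjusted p = 8.17e-07). Ppp1r21, an endosomal protein, was lower (log2 fold change -1.13 ± 0.23, edgeR adjusted p = 0.00182).

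Of the 7 glycogen-targeting genes, 5 could be tested and Ppp1r3d alone was called, higher by 1.41 ± 0.32 (edgeR adjusted p = 0.00310) on 15 to 19 counts per input library and 9 to 16 per p-UPF1 IP library. The ASPP gene Ppp1r13b (ASPP1), an activator of p53 family proteins, was lower, with a log2 fold change of -0.49 ± 0.17 (edgeR adjusted p = 0.0323), and 7 alternatives did not keep this call. Its relative Ppp1r13l (iASPP) was not called, at 0.73 ± 0.31 (adjusted p = 0.0591), but was called higher with library totals (1.13), with filterByExpr (0.76) and without p-UPF1 IP replicate 2 (0.97). Ppp1r15b (CReP), which brings PP1 to eIF2 alpha, was the most counted PP1 regulatory gene in the input, at 44.9, 52.1 and 42.4 CPM there and 41.7, 40.8 and 41.8 CPM in the p-UPF1 IP. Each p-UPF1 IP value was under each input value, but the nearest were 41.8 and 42.4 CPM, and it was not called (log2 fold change -0.17 ± 0.09, adjusted p = 0.129). It was called lower without a filter on low counts, at -0.24, and its value turned to 0.24 with library totals.

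The 14 tested scaffold and B subunits of PP2A were divided, with 4 higher, 7 lower and 3 not called, and a median log2 fold change of -0.36. Against the 26.3% and 35.7% of all genes higher and lower, the share higher was near the background. The major scaffold gene Ppp2r1a lay at 31.3, 29 and 30.1 CPM in the input and 15.1, 15.8 and 18 CPM in the p-UPF1 IP and was lower (log2 fold change -0.88 ± 0.09, edgeR adjusted p = 1.03e-05). The minor scaffold gene Ppp2r1b was not called at 0.16 ± 0.16 (adjusted p = 0.381), and was higher with library totals, at 0.57.

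Of the B55 genes, which encode the subunits that oppose cyclin-dependent kinases at mitotic exit, Ppp2r2b and Ppp2r2d were lower (log2 fold changes -0.83 ± 0.15 and -0.73 ± 0.12, edgeR adjusted p = 0.000671 and 0.000494). Ppp2r2c was higher (0.36 ± 0.10, edgeR adjusted p = 0.0103). Ppp2r2a was not called, at -0.19 ± 0.09 (adjusted p = 0.0983), and its value turned to 0.22 with library totals.

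Of the B56 genes, which encode subunits that bind short linear motifs in substrates, Ppp2r5c and Ppp2r5a were lower (-0.96 ± 0.12 and -0.53 ± 0.09, edgeR adjusted p = 4.48e-05 and 0.000397). Ppp2r5d was higher (0.62 ± 0.13, edgeR adjusted p = 0.00166), as was Ppp2r5b (0.23 ± 0.09, edgeR adjusted p = 0.0481), a call that 9 alternatives did not keep. Ppp2r5e was not called, at 0.09 ± 0.08 (adjusted p = 0.385), and was higher with library totals, at 0.501.

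The B'' genes, whose products bind calcium, held both ends of the range of PP2A regulatory genes. Ppp2r3d lay at 5.91, 7.23 and 7.43 CPM in the input and 28.6, 22.8 and 23.7 CPM in the p-UPF1 IP, a 3.63-fold higher level (log2 fold change 1.86 ± 0.12, edgeR adjusted p = 3.88e-07). Ppp2r3a lay at 7.22, 7.10 and 5.87 and 2.71, 2.61 and 2.96 CPM and was 2.43-fold lower (log2 fold change -1.28 ± 0.16, edgeR adjusted p = 6.12e-05). The groups of both genes were apart in every library. Ppp2r3c was lower as well (log2 fold change -0.64 ± 0.17, edgeR adjusted p = 0.00724).

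In calcineurin, the calcium-binding B subunit gene Ppp3r1 was lower (log2 fold change -0.85 ± 0.09, edgeR adjusted p = 1.28e-05), with 15.2% of its windows also in the gene Wdr92. Of the PP4 subunits, Ppp4r2, the core partner of PP4 in its trimeric complex, lay at 37.5, 34.5 and 41.6 CPM in the input and 11.9, 14 and 13.4 CPM in the p-UPF1 IP (log2 fold change -1.53 ± 0.10, edgeR adjusted p = 5.40e-07). Its 2 alternative targeting partners differed, since Ppp4r3a was higher (0.40 ± 0.09, edgeR adjusted p = 0.00362) and Ppp4r3b was lower by a small amount (-0.24 ± 0.09, edgeR adjusted p = 0.0324), a call that 8 alternatives did not keep, library totals among them (0.17). Ppp4r1 (0.16 ± 0.09, adjusted p = 0.126, called higher with library totals at 0.57) and Ppp4r4 were not called, the latter with 7, 5 and 5 input counts and 1 p-UPF1 IP count in all (ratio of scaled totals 0.204, exact interval 0.00488 to 1.30, adjusted p = 0.108). Of the PP6 subunits, Ppp6r1 lay at 10.0, 9.91 and 9.68 CPM in the input and 23.2, 22.9 and 17.5 CPM in the p-UPF1 IP and was 2.14-fold higher (log2 fold change 1.100 ± 0.11, edgeR adjusted p = 1.05e-05). Ppp6r2 and Ppp6r3 were not called, at 0.18 ± 0.17 and -0.01 ± 0.08 (adjusted p = 0.361 and 0.940), and both were called higher with library totals, at 0.59 and 0.40. The catalytic gene of PP6 was thus the lowest called member while none of its 3 partners was lower.

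PP1 and PP2A as families differed less than catalytic and regulatory genes did. Of 32 tested PP1 genes, 8 were higher, 13 lower and 11 not called, and of 16 tested PP2A genes, 4 were higher, 9 lower and 3 not called. Beside the 26.3% and 35.7% of all genes, the PP1 counts and the number of PP2A genes higher lay near the background. Their median log2 fold changes were -0.15 and -0.59, a difference of 0.43 that was 0.55, 0.23 and 0.40 when taken from each p-UPF1 IP library against the mean input. Among regulatory genes alone the medians were 0.02 for PP1 and -0.36 for PP2A, and among catalytic genes they were -2.23 and -1.81, so the order of the families was opposite in the 2 roles. PP2A has 2 catalytic genes and PP1 has 3, so these medians rest on few values.

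The comparison with the rIgG IP asks whether recovery depended on the p-UPF1 antibody, and for these genes it was limited by depth. No phosphatase gene had more than 15 counts in any rIgG IP library. Of 57 genes tested, 12 were higher in the p-UPF1 IP than in the rIgG IP and 3 were lower, against 18.5% and 5.56% of 12033 genes tested. Of the 45 regulatory genes tested, 11 were higher and none was lower by edgeR, and of the 11 catalytic genes, Ppp5c was higher and 3 were lower. The median log2 fold change was -0.66 over the catalytic genes, 1.07 over the regulatory genes and 0.91 over all genes. With the genes that had no rIgG count set to the bound that 3 counts over the group allow, the medians were -0.66, 0.66 and 0.19. The difference between the catalytic and regulatory medians was -1.51, -1.58 and -1.56 when taken from each p-UPF1 IP library against the mean rIgG IP. The p-UPF1 IP libraries are the same as in the comparison with input, and the rIgG IP libraries return in the comparison that follows, so the comparisons are not independent.

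The genes lower than in the rIgG IP were Ppp1ca, Ppp2cb and Ppp3ca. Ppp1ca had 7, 5 and 3 rIgG IP counts against 28, 31 and 36 p-UPF1 IP counts (log2 fold change -1.79 ± 0.45, edgeR adjusted p = 0.00448). Ppp2cb had 12, 5 and 2 and 51, 52 and 65 counts (-1.297 ± 0.39, edgeR adjusted p = 0.0174) and Ppp3ca had 13, 4 and 1 and 45, 65 and 62 counts (-1.18 ± 0.41, edgeR adjusted p = 0.0369). Among the genes that were higher, Ppp4r3a had the smallest adjusted p, with 7, 4 and 2 rIgG IP counts against 224, 269 and 313 p-UPF1 IP counts (1.495 ± 0.35, edgeR adjusted p = 0.00268), followed by Ppp2r3d, with 3, 2 and 1 and 169, 166 and 168 counts (1.93 ± 0.48, edgeR adjusted p = 0.00425). Ppp1r12c, Ppp6r1, Ppp6r3 and Ppp5c were higher by log2 fold changes of 1.70 to 1.90, and Ppp2r5e, Ppp2r2c, Ppp1r16b and Ppp1r9a by 1.17 to 1.71. In the rIgG IP, Ppp1r12c had 2, 1 and 1 counts, Ppp6r1 had 4, 2 and 0, and Ppp6r3 had 4, 1 and 0. Ppp5c had 5, 0 and 0, so its control value rests on 1 library. Ppp1r16a and Ppp1r37 had 1 and 2 rIgG counts in all. The ratios of their summed counts, scaled by effective library size, were 9.34 (exact interval 1.66 to 371) and 6.11 (exact interval 1.67 to 50.7), and these intervals cover counting error only. Tested genes without any rIgG count, 5 in number, are given no fold. The number of genes called higher was 2 to 15 across the alternatives, and without the rIgG IP libraries 1, 2 or 3 in turn it was 4, 4 and 5. Without rIgG IP replicate 1, 1 gene was lower in place of 3.

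In the rIgG IP over input, no phosphatase gene was called by edgeR or by DESeq2, against 0.584% of 16280 genes higher and 0.313% lower. At an unadjusted p of 0.05 by edgeR, 14 of the 63 tested genes passed in either direction, all of them lower, against 2011 of the 16280 genes. The share of all genes lower at that level was not counted, so no result about these genes is read from it. The catalytic median was -0.72 and the regulatory median -0.74, with -0.84 over all genes. With genes at 0 in the rIgG IP set to their bound, the medians were -0.72, -0.23 and 0.30, so the regulatory value depends on genes without rIgG counts, and no order of the roles is read from this depth. Per rIgG IP library against the mean input, the difference between these medians was -0.07, -0.19 and -0.93, and the last of these libraries has the fewest counts.

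Features of the mRNAs that did not enter the choice of genes varied along with the fold change. Catalytic coding sequences were shorter than regulatory ones, with medians of 984 and 1593 nt, and poorer in G and C, at 47.6% and 53.2%. Over the 62 tested members with an annotated coding sequence, the Spearman correlation of coding GC content with the log2 fold change of the p-UPF1 IP over input was 0.50, and over 12757 genes it was 0.40. For coding length the values were 0.26 and 0.22, for the GC content of the 3' UTR 0.44 (61 members) and 0.45, and for 3' UTR length -0.12 and 0.10. These member values pool both roles. Over the 51 regulatory members alone, the correlation was 0.47 for coding GC and 0.15 for coding length. For their 3' UTR it was 0.35 for GC (50 members) and -0.13 for length. Over the 11 catalytic members it was 0.40, 0.37, 0.11 and -0.36 in the same order. Genes are not independent replicates, and all points share the same 6 libraries. When all genes were put in 5 equal bins by coding GC content, 9 of the 11 catalytic genes lay below the median of their own bin. In the bin with the least GC, the median was -0.995 over all genes, -2.23 over 3 catalytic genes and -0.59 over 14 regulatory genes. In the next it was -0.55 over all genes, -1.51 over 5 catalytic genes and -0.14 over 7 regulatory genes. In bin 3 it was -0.20 over all genes, -1.70 over 2 catalytic genes and -0.0019 over 8 regulatory genes. In bin 4 it was 0.36 over all genes, 0.75 for 1 catalytic gene and 0.21 over 8 regulatory genes. In the bin with the most GC it was 0.73 over all genes and 0.88 over 14 regulatory genes. From the least to the most GC, 4 of 14, 3 of 7, 3 of 8, 5 of 8 and 6 of 14 regulatory genes lay below the median of their bin. The part of GC content and length in these fold changes was not tested.

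**Figure D4:**
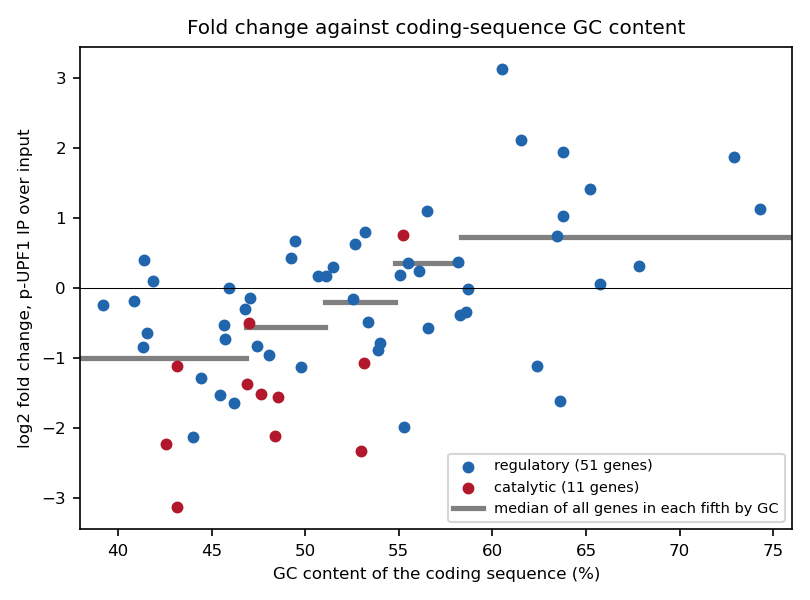
Log2 fold change in the p-UPF1 IP over input (y axis) against the GC content of the annotated coding sequence (x axis, percent) for 51 regulatory (blue) and 11 catalytic (red) genes, with grey bars at the median of all genes in each of 5 equal bins by GC content. Both rise with GC content, and 9 of the 11 red points lie under the grey bar of their bin.

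By counts per transcript, the transcript credited with the reads changed between input and p-UPF1 IP within some of these genes. Of the 408 transcripts, 227 could be tested between p-UPF1 IP and input, and by edgeR 24 were enriched and 55 depleted, against 8.55% and 16.2% of 42616 transcripts. They came from 20 and 37 genes, and 15 genes had both an enriched and a depleted transcript. Of the enriched transcripts 13 had no count in any input library, and of the depleted ones 28 had none in any p-UPF1 IP library. The matching shares over all genes and all transcripts are not given here, so no result about these genes is read from these numbers. Without input replicate 1, 2 or 3, the depleted transcripts numbered 35, 36 and 37, and with the replicate number as a block 4 transcripts were enriched and 14 depleted. Of the tested transcripts, those of catalytic genes comprised 3 enriched, 16 depleted and 25 not called, and those of regulatory genes 21 enriched, 38 depleted and 122 not called. By annotated type, 12 of 128 tested protein-coding transcripts and 6 of 51 tested retained introns were enriched. So were 3 of 27 tested processed transcripts. Of 20 tested transcripts labelled as subject to NMD, 3 were enriched and 5 depleted. Shares by type over all transcripts are not given here, so no result about a type is read from these numbers.

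In Ppp1r14b, the coding transcript ENSMUST00000070850.7 held 503, 456 and 513 input counts against 0, 0 and 0 counts after p-UPF1 IP. The retained-intron transcript ENSMUST00000235195.1 held 0, 0 and 0 and 37, 30 and 43 in the same libraries, and 10, 3 and 0 in the rIgG IP. In Ppp1r10, the coding transcripts ENSMUST00000087211.8 and ENSMUST00000087210.6 have coding sequences of equal length, 2667 nt. The former took 85.7% to 89.3% of the gene's counts in the input and none in the p-UPF1 IP, and the latter took none in the input and 94.1% to 100% in the p-UPF1 IP. In Ppp4r3a, the share of ENSMUST00000163095.8 was 1.21% to 2.33% in the input and 66.5% to 98.1% after p-UPF1 IP. In Ppp1r15b, whose summed count was not called, the coding transcript ENSMUST00000052529.3 took 99.8% to 100% of the counts in the input and 32.0% to 37.0% in the p-UPF1 IP. The rest went to the non-coding transcript ENSMUST00000122956.1, with 2, 2 and 0 input counts against 155, 202 and 199 after p-UPF1 IP. Of the 35-nt windows of the enriched transcripts of Ppp1r14b, Ppp1r10, Ppp4r3a and Ppp1r15b, 17.6%, 0%, 1.78% and 0.794% occur in no other transcript of the same gene. At most places a short read therefore cannot name the transcript, and the summed counts are the firmer values.

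**Figure D5:**
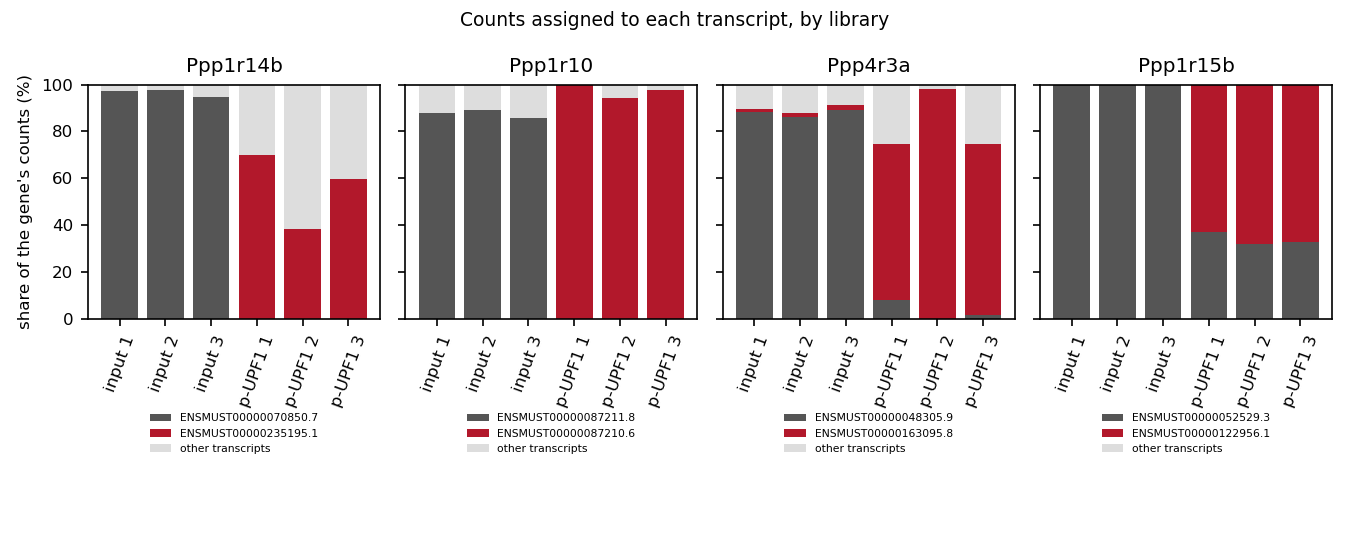
Share of a gene's counts (y axis, percent) assigned to its main depleted transcript (dark grey), its enriched transcript (red) and all others (light grey) in each of 3 input and 3 p-UPF1 IP libraries (x axis) for Ppp1r14b, Ppp1r10, Ppp4r3a and Ppp1r15b. In all 4 genes the dark transcript holds at least 85.7% of the input counts, and the red one holds 38.5% to 100% of the p-UPF1 IP counts.

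Other phosphatase genes without these symbols gave a point of comparison. Of 17 tested partners and regulators of PP2A with other symbols, 4 were higher in the p-UPF1 IP than in the input. A further 8 were lower and 5 not called, with a median of -0.14. These shares, 23.5% higher and 47.1% lower, stand beside 26.3% and 35.7% of all genes, so the share higher was near the background. Igbp1, the alpha4 protein that binds free PP2A, PP4 and PP6 catalytic subunits, was the lowest at -3.84 ± 0.28 (edgeR adjusted p = 8.18e-07). It had 93, 105 and 108 input counts but 2, 2 and 2 p-UPF1 IP counts, so the size of its fold is uncertain. The striatin complex was split, with Strn4 higher (1.14 ± 0.09, edgeR adjusted p = 1.85e-06) and Mob4 lower (-1.97 ± 0.19, edgeR adjusted p = 7.36e-06). Ptpa, the PP2A activator, was higher (0.95 ± 0.08, edgeR adjusted p = 3.87e-06), while the known PP2A inhibitors did not share a direction. Among these Anp32a, Anp32e and Cip2a were lower by edgeR (-1.46 to -1.28 on the log2 scale). Ensa was higher (0.66 ± 0.08, edgeR adjusted p = 5.23e-05), and Set and Arpp19 were not called (-0.14 ± 0.08 and -0.14 ± 0.12, adjusted p = 0.177 and 0.338). Tiprl and Bod1, other regulators in the list, were lower as well (-0.80 ± 0.15 and -1.33 ± 0.19, edgeR adjusted p = 0.000852 and 0.000127). Of 17 tested PPM and PHLPP phosphatases, a family that okadaic acid does not inhibit, 5 were higher, 4 lower and 8 not called. Their median was 0.01. The share higher, 29.4%, was near that of all genes, and the share lower, 23.5%, was below it. Ppm1f was the highest (2.16 ± 0.10, edgeR adjusted p = 3.73e-08) and Pdp1 the lowest (-2.24 ± 0.28, edgeR adjusted p = 5.62e-05).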

How the data were processed

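The deposited table holds estimated counts per transcript for the 9 libraries, which the authors made with Salmon (version 0.13.1 in the submitters' processing notes, which also name STAR 2.7.0f, DESeq2 1.22.1, R 3.5.1, bcl2fastq 2.19.0 and GRCm38.p6). The values are whole numbers, not normalized, and sum to 79010 to 29857955 per library. Here they were summed per gene symbol, and symbols with a summed count of at least 10 in the 6 libraries compared were tested with edgeR 4.0.16 (R 4.3.3), by TMM scaling and the quasi-likelihood test, two-sided, with Benjamini-Hochberg adjustment over all genes or transcripts tested. Higher and lower mean an adjusted p under 0.05, and enriched and depleted also a log2 fold change beyond 1 in size. CPM are TMM-scaled unless said otherwise, errors of log2 fold changes are standard errors, and other errors are SD over 3 libraries. Lengths, GC content and sequences come from GENCODE M21 (GRCm38), an earlier release of the same build as the authors' annotation, in which 139921 of the table's 140658 transcripts were found, 407 of the 408 phosphatase transcripts among them. Each gene's representative is a coding transcript of the GENCODE basic set with the best APPRIS principal level, and the longest of these. Levels per kilobase are the sum over transcripts of CPM by library total divided by transcript length.

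The members and all lists were chosen with earlier results of these data known. Genes named are all catalytic, PP2A, PP2B, PP4 and PP6 subunits tested, the 8 highest and 8 lowest PP1 regulatory genes among those called, and Ppp1r2, Ppp1r8, Ppp1r10, Ppp1r12a and Ppp1r15b. Ppp1r7, Ppp1r13l, Ppp1r14a, Ppp1r18 and the named PP2A partners and PPM phosphatases were picked after their values were seen. On simulated counts with 200 changed genes, the test recovered 91.5% of them in p-UPF1 IP over input (16340 genes tested). It recovered 61.5% in p-UPF1 IP over rIgG IP (11741) and 35.0% in rIgG IP over input (15690). Of 200 changed transcripts, it recovered 6.00% (38133 tested). Of the genes called, 3.68%, 7.52% and 6.67% were false in the same order, as were 7.69% of the transcripts called. The fold changes given to the 200 genes or transcripts are not stated here. The shares are therefore not read for the smaller fold changes reported, where recovery was not tested. Alternatives were DESeq2 1.42.0, RLE size factors, library totals, filterByExpr, no filter, a fit over all 9 libraries, the replicate number as a block, and leaving out each library in turn. The authors' methods tested transcripts with DESeq2.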

Additional observations from a re-analysis of the deposited data

How the results depend on the processing

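In the p-UPF1 IP over input, the catalytic minus regulatory difference (-1.57 to -1.39) and the PP1 minus PP2A difference (0.35 to 0.49) changed by less than the spread between libraries under the alternatives run. The genes called higher numbered 14 to 16 and those lower 24 to 30, except with library totals (22 and 19), where the values of Ppp1r12a (0.27), Ppp1r14c (0.0595), Ppp1r15b (0.24), Ppp2r2a (0.22), Ppp4r3b (0.17), Ppp1r7 (0.1001), Ppp1r18 (0.38) and Ppp6r3 (0.40) turned above 0, since that scaling moved the median of all genes by 0.41. Shares of all genes called are not given for these alternatives. Without a filter on low counts Ppp1r15b was called lower, at -0.24. Ppp6r3, at -0.01, was 0.0107 with DESeq2, 0.00994 with RLE size factors, 0.0185 with filterByExpr, 0.0194 with all 9 libraries and -0.0270 to 0.0635 on leaving out a library. Ppp1r18, at -0.02, was 0.00277 with filterByExpr, 0.00528 with all 9 libraries and -0.139 to 0.096 on leaving out a library.

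In the p-UPF1 IP over rIgG IP, 12 genes higher became 2 with DESeq2, 4 with RLE size factors, filterByExpr or the block, and 4 to 9 on leaving out a library. The 3 genes lower became 1 with the block or without rIgG IP replicate 1, and 1 to 3 on leaving out a library. The catalytic minus regulatory difference was -1.59 with DESeq2, -1.64 with filterByExpr, -1.97 without a filter, -1.68 with the block and -1.82 to -1.54 on leaving out a library. The PP1 minus PP2A difference was -0.14 with DESeq2 and 0.62 without a filter. In the rIgG IP over input, 1 gene was lower with filterByExpr, without a filter and with all 9 libraries, the PP1 minus PP2A difference was 0.36 with DESeq2 and -0.58 to -0.00956 on leaving out a library, and the catalytic minus regulatory difference was -0.60 to 0.12. For transcripts, the depleted numbered 35 to 55 on leaving out a library, with 35, 36 and 37 without input replicate 1, 2 or 3. The cause of these changes was not tested.

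Libraries of the groups have the same replicate numbers, and the labels do not say whether these numbers pair them. Deviations from the group means correlated at -0.000467, 0.0902 and 0.0786 between p-UPF1 IP and input over 7583 genes. Noise can leave values this low in paired libraries too, so pairing is neither shown nor excluded. With the replicate block, 14 genes were higher and 28 lower in p-UPF1 IP over input, and 4 transcripts were enriched and 14 depleted. The depth of the rIgG IP, at most 15 counts for any of these genes, limits every value that rests on it.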
